A study of Mus musculus with 4 samples.

Results

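The contractile apparatus of vascular smooth muscle cells (VSMCs) was described here through 33 genes, all of which were listed in each of the 4 single-cell libraries, out of 34469 genes listed in all. The genes were chosen by name for their part in contraction and in anchoring actin. The rule uses no measured value, but earlier results of these data were known when the genes were chosen. Plaques dissected from aorta and carotid artery gave one library from Myh11-CreERt2/Confetti/ApoE-/- mice (ApoE-/-) and one from Myh11-CreERt2/Confetti/Sm22a-Trf2T188A/ApoE-/- mice (Trf2T188A/ApoE-/-). Ligated carotid arteries, taken 28 days after ligation, gave one library from wild-type littermate controls and one from SM22a-TRF2T188A mice (Trf2T188A). All 4 were on the C57Bl/6 background, and both groups of plaque mice had been fed a high fat diet. Both plaque genotypes lacked ApoE and carried the Myh11-driven recombinase and the Confetti reporter, which marks cells that once expressed Myh11, and the plaque cells deposited were those of reporter-expressing clusters. T188A is a mutant form of the telomere protein TRF2, expressed here from the Sm22a promoter. Sm22a is another name for Tagln, one of the 33 genes, so the promoter comes from a contractile gene. Per the study it is a minimal promoter that stays active when VSMCs change their phenotype. The number of mice behind each library and their ages were not given in the labels.

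Smooth muscle contracts when myosin light chain kinase phosphorylates the regulatory light chain of the Myh11 motor, which then pulls on actin filaments. Myosin phosphatase reverses this, tropomyosins, calponins, caldesmon and transgelin bind along the actin filament, and dense bodies and adhesion plaques tie the filaments to the membrane. Transcription of many of these genes rests on serum response factor and its cofactor myocardin, which act through a DNA element called the CArG box. Loss of these transcripts is the usual sign that a VSMC has de-differentiated, as VSMCs do in plaques and after injury.

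With 1 library per genotype in each experiment there is no replicate, so no test across samples was possible. Intervals are 95% intervals from the counts of unique molecular identifiers (UMIs), and they cover counting error only. A level is the mean over cells of a gene's UMIs per 10000 UMIs of the cell. The kit counts the end of each transcript once, so a spliced transcript is not counted more for being long. Intronic reads were not separated in the deposited values, so levels of genes with long loci may hold some of them. The capture of single genes can differ, and splice forms, such as those of Cald1, Smtn or Tpm1, were not separated. A ratio between cell states is the log2 ratio of levels, with both libraries weighted equally.

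The plaque libraries held 1502 ApoE-/- and 929 Trf2T188A/ApoE-/- cells with medians of 22765.5 and 24377 UMIs per cell, and the ligation libraries held 4967 control and 5392 Trf2T188A cells with medians of 8631 and 11153. The ligation libraries shared 10 cell barcodes, the plaque libraries shared 0, and no other pair shared more than 2. Apoe was at 0.042 and 0.058 UMIs per 10000 in the plaque libraries, whose mice lacked it, and at 11.7 and 11.1 in the ligation libraries. Terf2, the gene of TRF2, was at 0.189 and 0.18 in plaques without and with the transgene and at 0.18 and 0.164 after ligation, so its level did not mark the transgenic libraries. Clusters formed without the 33 genes were named from marker lists that held none of them. In plaques the classes were contractile-like (508 ApoE-/- and 268 Trf2T188A/ApoE-/- cells), Itih4 intermediate-like (194 and 146), fibromyocyte-like (159 and 124, with extracellular matrix markers), complement-like (111 and 85), chondrocyte-like (81 and 63), long-gene-like (82 and 104), Adamtsl1-like (41 and 40), Pln-like (47 and 22) and fibroblast-like (34 and 1). A further cluster of 245 and 76 cells carried contractile and immediate-early markers alike and stayed unnamed. After ligation they were contractile-like (1444 control and 2123 Trf2T188A cells), remodelling-like (2055 and 1908), de-differentiated-like (1266 and 1166), interferon-like (120 and 73), endothelial-like (62 and 65) and immune-like (20 and 57). The 10 endothelial markers summed to at most 1.83 UMIs per 10000 in any smooth muscle class and the 10 immune markers to at most 4.43, against at least 62.7 and 260 in the endothelial-like and immune-like classes.

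The 33 genes made up a large part of the RNA of contractile cells. In contractile-like plaque cells the 33 genes took a median of 7.84% (ApoE-/-) and 7.76% (Trf2T188A/ApoE-/-) of a cell's UMIs. The share was lower in each of the other main plaque classes, with medians of 5.08% and 5.22% in Itih4 intermediate-like cells, 1.27% and 1.34% in complement-like cells, 1.27% and 0.683% in fibromyocyte-like cells and 0.262% and 0.273% in chondrocyte-like cells. The libraries lay close to each other in each of these classes other than the fibromyocyte-like one. After ligation the range was narrower. Contractile-like cells held 7.14% in the control and 7.39% in the Trf2T188A library, remodelling-like cells held 8.45% and 8.19%, and de-differentiated-like cells kept 4.1% and 3.89%. Ligation and plaque libraries were processed separately, so their levels are only set side by side.

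**Figure D1:**
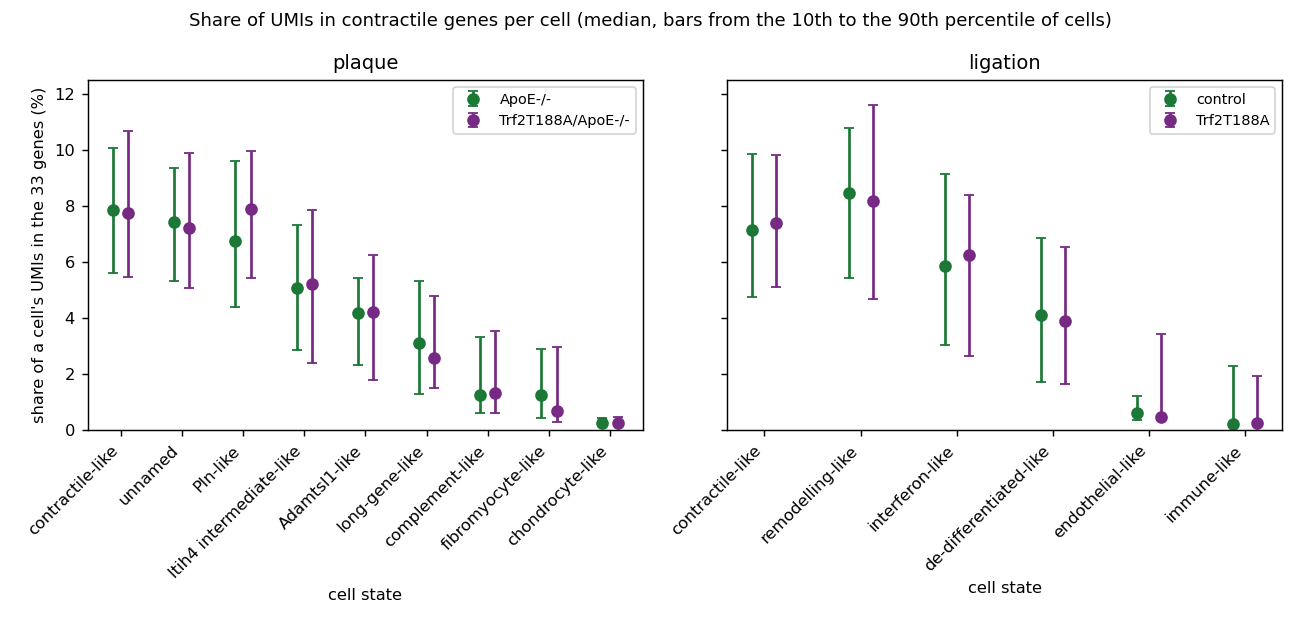
Share of a cell's UMIs that fell in the 33 contractile genes, in percent, by cell state for plaque and ligation libraries (classes of at least 20 cells), with the median as a point and bars from the 10th to the 90th percentile of cells. The plaque classes run from 7.84% in contractile-like to 0.262% in chondrocyte-like ApoE-/- cells, and the fibromyocyte-like class is the one where the Trf2T188A/ApoE-/- median (0.683%) sits well below the ApoE-/- median (1.27%).

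The stretches upstream of 3 of the genes are shown because they carry the same element while the ratios of the genes between cell states lie far apart. In RefSeq's annotation of GRCm38.p6, 28 of the 33 genes had a promoter window of 250 bases before a transcript start. Myh11 and Tagln were not among them. A CArG box was counted only as the exact pattern of CC, 6 bases of A or T, and GG. It was found in the window of 5 genes (Myl9, Myl6, Vcl, Ldb3 and Cnn2). Boxes with a mismatch, such as CCCTATATGG in the window of Acta2, were not counted. The box was present in 1.62% of all genes with a window (439 of 27025). The sequences run 5′ to 3′ on the forward strand, which is the strand of all 3 genes, and the capitals mark the box. That of Myl9 lies at chr2:156775214-156775419, upstream of the gene, with the box starting 161 bases before the RefSeq start. That of Vcl lies at chr14:20929148-20929397 with the box 227 bases before the start. That of Cnn2 lies at chr10:79988350-79988583 with the box 56 bases before the start.
Myl9: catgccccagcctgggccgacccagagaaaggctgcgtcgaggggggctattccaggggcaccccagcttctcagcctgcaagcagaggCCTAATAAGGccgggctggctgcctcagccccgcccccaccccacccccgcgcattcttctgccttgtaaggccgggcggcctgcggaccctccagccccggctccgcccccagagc
Vcl: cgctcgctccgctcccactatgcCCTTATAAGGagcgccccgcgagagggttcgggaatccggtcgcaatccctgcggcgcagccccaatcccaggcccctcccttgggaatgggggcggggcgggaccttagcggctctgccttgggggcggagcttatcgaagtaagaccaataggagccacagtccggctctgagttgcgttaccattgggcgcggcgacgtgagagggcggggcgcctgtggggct
Cnn2: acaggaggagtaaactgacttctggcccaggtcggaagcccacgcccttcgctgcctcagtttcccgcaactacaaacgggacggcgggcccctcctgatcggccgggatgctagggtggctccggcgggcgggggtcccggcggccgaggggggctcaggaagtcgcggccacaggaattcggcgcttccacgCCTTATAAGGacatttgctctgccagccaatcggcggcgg
Myl9 was 13.4-fold lower in fibromyocyte-like than in contractile-like cells, whereas Vcl was 1.6-fold and Cnn2 1.99-fold lower. Over the 5 genes with a box the median log2 ratio was -2.02 (range -3.74 to -0.68), and over the 23 genes with a window but no box it was -2.24 (range -3.75 to 1.32). A window without the box says only that these letters are not in those 250 bases.

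Most contractile transcripts were far lower in fibromyocyte-like than in contractile-like plaque cells. Relative to contractile-like cells, 28 of the 33 genes were at least 2-fold lower and 1 (Tpm4) was at least 2-fold higher. Among all 3257 genes with a level of at least 0.5 over both classes, 9.64% were that much lower and 9.36% that much higher. The median log2 ratio was -2.24 over the 33 genes and -0.10 over all genes. The ratios had the same sign in both libraries for 32 of the 33 genes, all but Palld. The 3 lowest ratios belonged to Myh11, Cnn1 and Myl9, and the 3 highest to Tpm4, Sncg and Palld.

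Among the motor genes, Myh11, the smooth muscle myosin heavy chain (chromosome 16, 14194535 to 14291372, minus strand, GRCm38), stood at 42.5 UMIs per 10000 in contractile-like cells of the ApoE-/- library and at 38.1 in the Trf2T188A/ApoE-/- library. In fibromyocyte-like cells it stood at 2.88 and 1.97, a log2 ratio of -4.06 (95% interval -4.13 to -3.98). Myl9, the regulatory light chain, was at 43 and 43.6 in contractile-like cells and at 3.63 and 2.82 in fibromyocyte-like cells, a log2 ratio of -3.74 (-3.80 to -3.69). The essential light chain Myl6, which non-muscle myosin uses too, differed less, with 67.7 and 67.4 against 19.1 and 14.2, a log2 ratio of -2.02. Mylk, the light chain kinase, had a log2 ratio of -2.66. The inhibitor of myosin phosphatase and the phosphatase's own subunits differed. Ppp1r14a, the inhibitor that protein kinase C switches on, had a log2 ratio of -3.46. The targeting subunits Ppp1r12a and Ppp1r12b had -1.91 and -1.50.

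On the thin filament, Acta2, smooth muscle alpha-actin (chromosome 19, 34241090 to 34255590, minus strand), was at 174 and 187 UMIs per 10000 in contractile-like cells of the ApoE-/- and Trf2T188A/ApoE-/- libraries and at 25.6 and 16.8 in fibromyocyte-like cells, which is 8.51-fold lower. Tagln, transgelin (chromosome 9, 45929619 to 45936058, minus strand), went from 130 and 134 to 21.2 and 14, 7.52-fold lower. Cnn1, the smooth muscle calponin (chromosome 9, 22099216 to 22109630, plus strand), went from 14.4 and 14.4 to 1.44 and 0.697, 13.5-fold lower. The level of Smtn, smoothelin (chromosome 11, 3517523 to 3540612, minus strand), a marker of fully contractile cells, differed less, from 4.81 and 4.64 to 1.11 and 0.895, 4.72-fold lower. Tpm2, Lmod1, Dstn and Tpm1 had log2 ratios of -2.99, -2.80, -2.36 and -2.24, and Cald1 had -1.71. Actg2, the enteric smooth muscle actin, had -1.71, and its transcript is so like that of Acta2 that some of its reads may come from Acta2, which is much more abundant.

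These averages hid a wide spread between single fibromyocyte-like cells. Acta2 had a median of 15.3 UMIs per 10000 in the ApoE-/- library, with the 10th and 90th percentiles of cells at 1.21 and 54.9. In the Trf2T188A/ApoE-/- library its median was 4.59, with percentiles of 0.486 and 49.1. The upper ends were alike and the medians were not. In contractile-like cells the 10th percentile of Acta2 was 99.8 and 95.8, above the 90th percentile of fibromyocyte-like cells in both libraries.

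Several of the genes that anchor actin kept more of their level. Vcl, vinculin of adhesion plaques, was at 5.75 and 5.27 in contractile-like and at 3.64 and 3.22 in fibromyocyte-like cells, a log2 ratio of -0.68 (-0.75 to -0.61). Palld, an actin-bundling protein of dense bodies, was at 0.981 and 1.06 against 1.33 and 1.04, a log2 ratio of 0.22 (0.09 to 0.35). Its higher level in fibromyocyte-like cells was seen in the ApoE-/- library only. Actn1 had a log2 ratio of -1.52 and Svil -1.77. Other anchoring genes were lower, with -2.62 for the actin crosslinker Flna, -2.93 for Synpo2 and -2.71 for Des, the intermediate filament protein desmin. Among LIM domain genes, Pdlim3 had -3.05, Csrp2 -2.89, Ldb3 -2.50, Csrp1 -2.14 and Pdlim7 -1.81. Sncg, gamma-synuclein, was higher in fibromyocyte-like cells, at 3.97 and 2.27 against 1.99 and 2.14, a log2 ratio of 0.60 (0.51 to 0.68). Most of this difference came from the ApoE-/- library, as the levels lay close together in the Trf2T188A/ApoE-/- library.

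Tpm4, the tropomyosin found in many non-muscle cells, was the only one of the 33 genes that was at least 2-fold higher. It was at 1.68 and 2.04 UMIs per 10000 in contractile-like cells and at 5.14 and 4.19 in fibromyocyte-like cells, 2.5-fold higher. The related genes Tpm1 and Tpm2 were 4.72-fold and 7.96-fold lower, so that Tpm4 made up 2.52% and 3.2% of the summed level of the 3 tropomyosins in contractile-like cells and 31% and 34.6% in fibromyocyte-like cells. The calponins had a like shift. Cnn1 was 75.2% and 73.1% of the summed calponins in contractile-like cells and 35.4% and 25.4% in fibromyocyte-like cells, as Cnn2 (log2 ratio -0.99) and Cnn3 (-1.23) differed less between the classes. Of the light chains, Myl9 went from 38.8% and 39.3% of the pair of Myl9 and Myl6 to 16% and 16.5%. Pdlim3 went from 56.2% and 55.4% of the pair of Pdlim3 and Pdlim7 to 39.7% and 27.5%. Within Csrp1 and Csrp2, the share of Csrp2 was 70.7% and 73.1% against 59.9% and 61.3%. Of Ppp1r12a and Ppp1r12b, the share of Ppp1r12b was 22.2% and 21.5% against 29.1% and 24.7%. Actg2 was 1.67% and 1.82% of the pair with Acta2 against 3.78% and 5.37%. These shares are of UMIs counted at transcript ends.

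**Figure D2:**
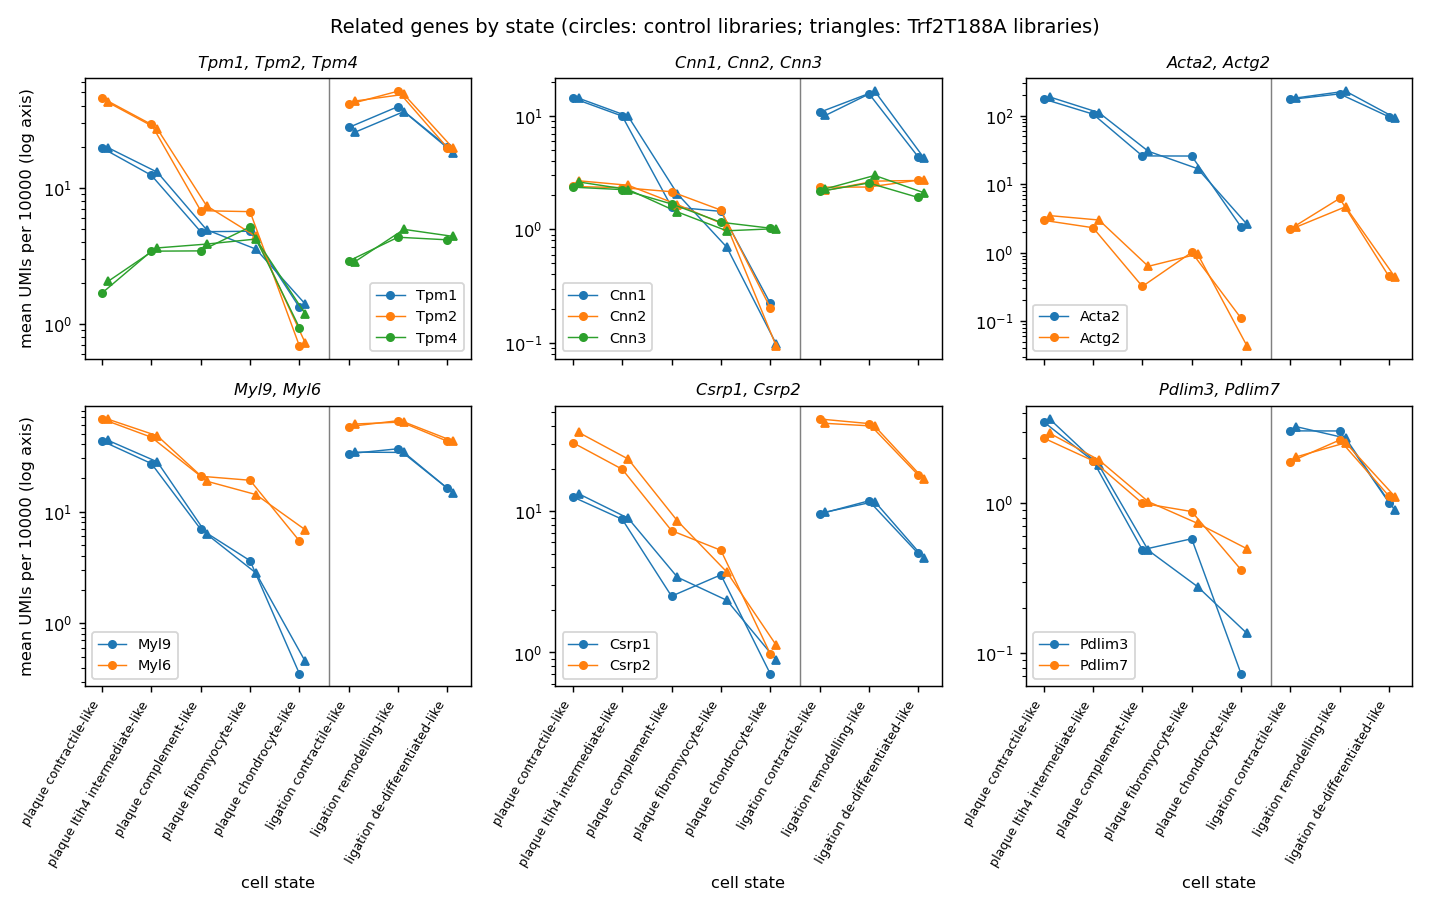
Mean UMIs per 10000 (log axis) of related contractile genes by cell state, with circles for the control libraries and triangles for the Trf2T188A libraries. Tpm4 is at 1.68 in contractile-like and 5.14 in fibromyocyte-like ApoE-/- cells while Tpm1 and Tpm2 are lower there, and Cnn1 lies above Cnn3 in contractile-like cells (14.4 against 2.36) and below it in chondrocyte-like ApoE-/- cells (0.223 against 1.03).

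Non-muscle relatives of the contractile genes, taken as a list, had a mixed pattern. Of 9 such genes, 8 had a sufficient level in fibromyocyte-like and contractile-like cells, and among those at least 2-fold higher were the non-muscle myosin Myh9 (log2 ratio 1.37) and the tropomyosin Tpm3 (1.28). The other non-muscle myosin heavy chain, Myh10, was lower (-1.90), and the cytoplasmic actins Actb and Actg1 had -0.88 and 0.11. Of 12 integrin adhesion partners, 7 were at least 2-fold lower and 0 higher, with the lowest ratios for the integrin Itga8 (-3.19), Tns1 (-2.48) and Zyx (-2.05). Of the 9 listed regulators only 3 reached the level, with Myocd, myocardin, at -1.46, Klf4, which represses contractile genes, at 1.26 and Gata6 at 0.22.

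Chondrocyte-like cells had the lowest levels of all. Of 31 contractile genes that reached the level over both classes (Des and Ldb3 did not), 30 were at least 2-fold lower and 0 higher than in contractile-like cells, and their median log2 ratio was -4.02. Among all 3139 genes, 23.2% were lower and 14.2% higher, and the median was -0.31. Myh11 had levels of 0.254 and 0.165 in the 2 libraries, 192-fold lower than in contractile-like cells (log2 ratio -7.59, -7.88 to -7.29). Myl9 was 107-fold, Cnn1 90-fold, Tagln 76.2-fold and Acta2 72.6-fold lower. Tpm4 (-0.82), Cnn3 (-1.29) and Palld (-1.30) had the highest ratios, and Smtn had -2.64 with levels of 0.829 and 0.684. Cnn2 and Sncg, which had -0.99 and 0.60 in fibromyocyte-like cells, had -4.10 and -1.77 here. Immediate early genes of tissue digestion, a list of 10, summed to 146 and 173 UMIs per 10000 in chondrocyte-like cells against 62.3 and 64.1 in contractile-like and 55.6 and 54.6 in fibromyocyte-like cells, and their part in these ratios was not tested.

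Free RNA can give UMIs in cells that do not express a gene, and its amount in the plaque libraries was not measured. After each plaque cell had been thinned to 8000 UMIs, Myh11 had at least 1 UMI in 8.97% (7 of 78) of ApoE-/- and 7.02% (4 of 57) of Trf2T188A/ApoE-/- chondrocyte-like cells, and Acta2 in 46.2% and 42.1%. The plaque libraries held no class that should lack these genes. In the ligation libraries, thinned to 5000 UMIs, endothelial-like cells had a UMI of Myh11 in 15.8% and 20.3% of cells and of Acta2 in 77.2% and 68.8%. The shares in chondrocyte-like cells were below these, although they were read at the higher depth, and cannot be told apart from background. Smtn differed, with 47.4% and 45.6% of chondrocyte-like cells against 17.5% and 18.8% of endothelial-like cells. In fibromyocyte-like cells the shares were 50.6% and 33.6% for Myh11, 33.8% and 21.8% for Cnn1 and 90.9% and 87.3% for Acta2. All were above those of endothelial-like cells, which were read at the lower depth of 5000 UMIs. A lower depth lowers such shares, so these, like those of Smtn, cannot place a plaque class above background. The summed mean level of Acta2 and Actg2 was 26.7 (ApoE-/-) and 17.7 (Trf2T188A/ApoE-/-) in fibromyocyte-like cells. In endothelial-like cells it was 13.7 (control) and 23.5 (Trf2T188A), so the ranges overlapped. In thinned contractile-like plaque cells Myh11 had a UMI in 99.8% and 99.6%. Median depths before thinning were 36229 and 32841 UMIs in chondrocyte-like and 10407 and 14166 in endothelial-like cells.

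Complement-like cells, which express complement and acute phase genes, had low levels of contractile transcripts too. Of 32 genes at a sufficient level, 25 were at least 2-fold lower and 0 higher (7.07% and 10.2% of all 3283 genes), with a median log2 ratio of -1.90 against -0.10 over all genes. The lowest ratios were those of Myh11 (-3.02), Cnn1 (-2.99) and Ppp1r14a (-2.93). The highest were Sncg (0.97), Tpm4 (0.96) and Cnn2 (-0.42). Acta2 was at 25.7 and 30.1, Tagln at 25.6 and 25, Cnn1 at 1.58 and 2.06 and Smtn at 1.67 and 1.62 in the ApoE-/- and Trf2T188A/ApoE-/- libraries, so that Acta2 and Tagln stood close to their levels in fibromyocyte-like ApoE-/- cells. Sncg was at 4.28 and 3.8, above its level in contractile-like cells in both libraries.

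Itih4 intermediate-like cells lay between. None of the 33 genes was at least 2-fold lower and 1 (Sncg, log2 ratio 1.2) was at least 2-fold higher (0.528% and 2.52% of all 3217 genes). Yet 29 of the 33 had a ratio below 0, and the median was -0.54 against -0.04 over all genes. Pdlim3 (-0.94), Myh11 (-0.81) and Dstn (-0.77) were lowest, and Tpm4 (0.91) and Palld (0.21) followed Sncg at the top. Myh11 was at 23.7 and 22.3, Acta2 at 105 and 110, Cnn1 at 10 and 9.98, Tagln at 87.3 and 93 and Smtn at 3.8 and 3.49. Vcl did not differ beyond counting error, with a log2 ratio of 0.01 (-0.04 to 0.07). All 33 genes had the same sign in both libraries.

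The smaller plaque classes each had a pattern of their own. In Adamtsl1-like cells 9 of 33 genes were at least 2-fold lower and 0 higher (2.53% and 6.65% of all genes), led by Sncg (-3.23), Des (-3.20) and Ppp1r14a (-1.78), while Acta2 (-1.50) and Tagln (-1.38) had lower ratios than Myh11 (-0.87), and Palld (0.72), Tpm4 (0.67) and Svil (0.26) were highest. The 7 pericyte markers summed to 36.1 and 32.5 UMIs per 10000 in Adamtsl1-like cells of the 2 libraries and to 11 and 11.3 in contractile-like cells, and the part of pericytes in this result was not tested. In Pln-like cells 0 genes were lower and 2 higher (1.82% and 3.63% of all genes), Sncg with 2.58 and Palld with 2.30, followed by Des with 0.88. Sncg stood at 11.4 and 13.3 UMIs per 10000 there against 1.99 and 2.14 in contractile-like cells. The lowest ratios in Pln-like cells were Csrp2 (-0.96), Actg2 (-0.69) and Cnn1 (-0.57). The unnamed cluster differed little, with 0 of 33 genes past 2-fold in either direction (0.247% and 1.95% of all genes) and ratios between -0.31 (Csrp2) and 0.29 (Sncg). Csrp2, Csrp1 (-0.28) and Myl9 (-0.25) were its lowest and Sncg, Svil (0.25) and Actg2 (0.25) its highest.

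In long-gene-like cells, which had the lowest depth (medians of 10155 and 8145.5 UMIs), low and high ratios occurred side by side. The class was named from a list of long genes. Of the 33 genes, 15 were at least 2-fold lower and 1 higher (22.1% and 27.2% of all 3408 genes). The 15 lower genes spanned a median of 10.4 kb of the genome (3.29 to 43.3), and the other 18 a median of 94.8 kb (7.48 to 391), so the ranges overlapped. Tpm2 (-2.36), Myl9 (-2.26) and Ppp1r14a (-2.25) were lowest, and Vcl (1.07), Svil (0.68) and Ppp1r12b (0.62) highest. Acta2 had -1.99, Tagln -2.00 and Cnn1 -1.72, whereas Myh11, with a locus of 96.8 kb, had -0.43 and Smtn -0.11. Intronic reads were not separated in the deposited values, and their part was not tested.

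**Figure D3:**
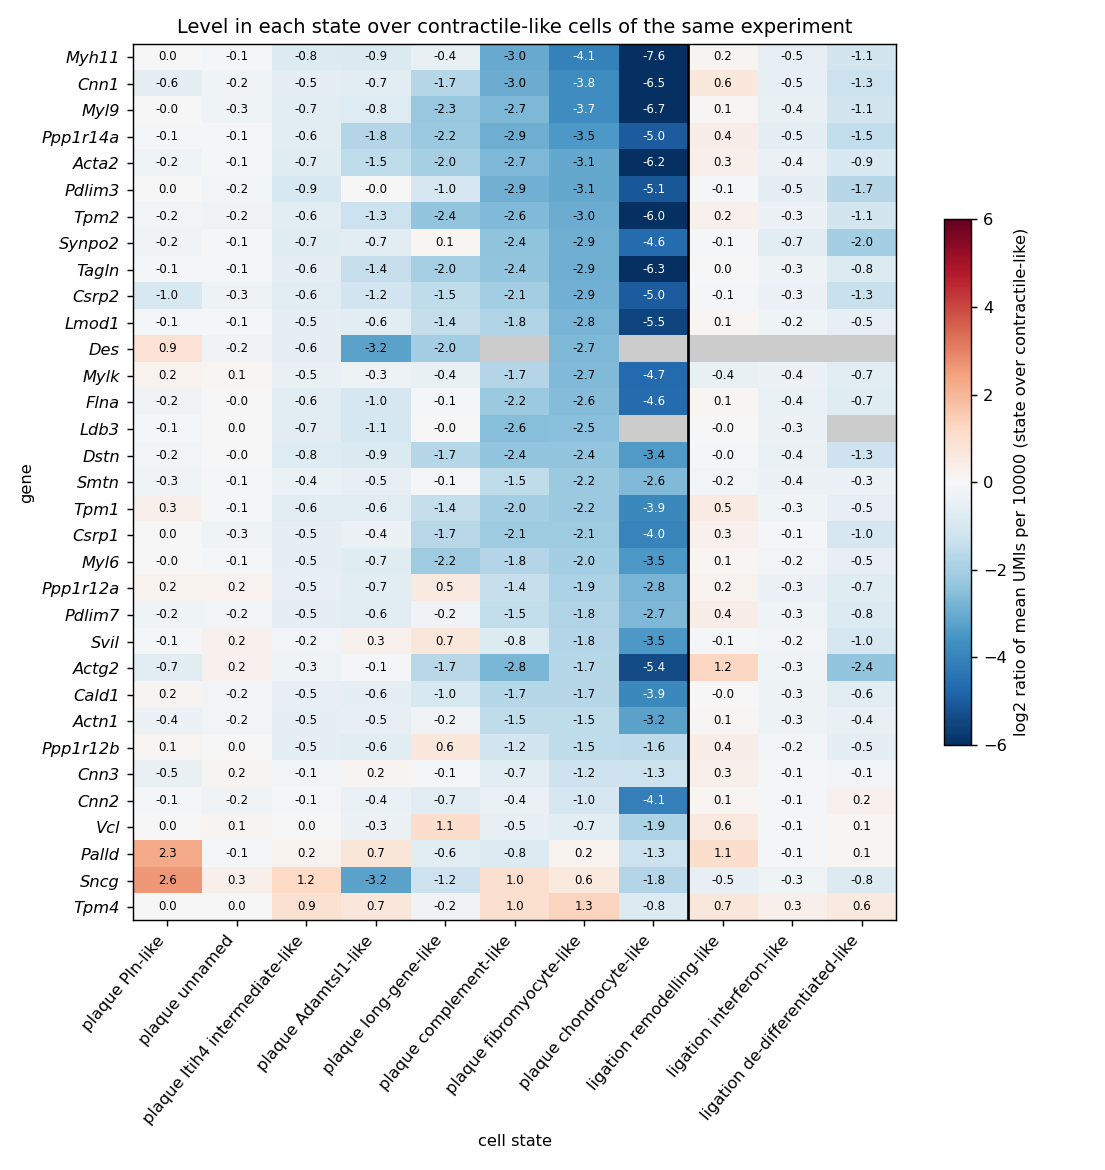
Log2 ratio of the mean UMIs per 10000 in each cell state over contractile-like cells of the same experiment, for the 33 genes (rows) and the plaque and ligation states (columns), with ratios of genes under a level of 0.5 in grey. Chondrocyte-like cells hold the lowest ratios (Myh11, -7.59), Tpm4 is above 0 in all but the chondrocyte-like and long-gene-like columns, and Sncg runs from -3.23 in Adamtsl1-like to 2.58 in Pln-like cells.

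After ligation, de-differentiated-like cells had lower levels of a part of the contractile genes. Of 31 genes at a sufficient level, 11 were at least 2-fold lower and 0 higher than in contractile-like cells (1.94% and 2.89% of all 3042 genes), and the median ratio was -0.81 against -0.08 over all genes. Actg2 (-2.36), Synpo2 (-2.05) and Pdlim3 (-1.72) were lowest, and Tpm4 (0.57), Cnn2 (0.25) and Vcl (0.11) highest. Myh11 was at 34.2 and 33.1 UMIs per 10000 in contractile-like and at 18 and 13.8 in de-differentiated-like cells of the control and Trf2T188A libraries, a log2 ratio of -1.08 (-1.10 to -1.06). Acta2 was at 172 and 181 against 95.9 and 93 (-0.90), Tagln at 125 and 137 against 73.9 and 75.2 (-0.81), Cnn1 at 10.8 and 10.2 against 4.38 and 4.26 (-1.28), and Smtn at 4.77 and 4.98 against 3.94 and 3.72 (-0.35). Each of these 5 genes was lower in de-differentiated-like cells in both libraries. Cnn1 made up 70.5% and 69.4% of the summed calponins in contractile-like and 48.5% and 47% in de-differentiated-like cells, and Tpm4 made up 4.04% and 3.98% of the tropomyosins against 9.44% and 10.5%. At 5000 UMIs per cell, Myh11 still had a UMI in 92.9% and 88.5% and Cnn1 in 68.4% and 66.3% of de-differentiated-like cells. Among the other lists, Myh9 was the only non-muscle relative that was at least 2-fold higher (log2 ratio 1.46) and Itga5 the only adhesion partner that was at least 2-fold lower (-1.12).

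Remodelling-like cells had contractile levels similar to or above those of contractile-like cells. Of 32 genes, 0 were at least 2-fold lower and 2 at least 2-fold higher (0.966% and 1.9% of all 3001 genes), Actg2 with a log2 ratio of 1.25 and Palld with 1.06, and the median was 0.13. Tpm4 (0.69), Cnn1 (0.63) and Vcl (0.57) were next. Sncg (-0.51), Mylk (-0.44) and Smtn (-0.16) were lowest. Acta2 was at 207 and 227 in remodelling-like cells of the control and Trf2T188A libraries, and Actg2 at 6.18 and 4.66 against 2.21 and 2.36 in contractile-like cells. Actg2 was thus at its highest among the ligation classes in remodelling-like cells and at its lowest among the smooth muscle classes in de-differentiated-like cells (0.448 and 0.441). In interferon-like cells 0 of 32 genes passed 2-fold in either direction (0.098% and 3% of all genes). Of the 32 ratios 31 were below 0, with a median of -0.32 against -0.07 over all genes. Synpo2 (-0.66), Pdlim3 (-0.55) and Ppp1r14a (-0.53) were lowest, and Tpm4 (0.31), Palld (-0.07) and Vcl (-0.09) highest. Myh11 was at -0.50, Acta2 at -0.35, Tagln at -0.31, Cnn1 at -0.48 and Smtn at -0.36.

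To ask at which point along de-differentiation each gene was lower, smooth muscle cells, in plaques all deposited cells, were ordered by a score over 8 de-differentiation genes (the matrix genes Col1a1, Col3a1, Dcn, Fmod, Fn1 and Lum, with Sfrp4 and Tnfrsf11b) at 1 depth and cut into 10 bins of equal size. The axis orders cells by their state and is not a time course. Of the 33 genes in 2217 plaque cells, 31 fell for good below 50% of their level in the first and second bins, against 17.7% of all 3323 genes. Ppp1r14a and Dstn, an actin-severing protein, were below that level from bin 7 and 20 genes from bin 8, among them Myh11, Acta2, Cnn1, Tagln and Myl9. The difference between these bins was small, since in bin 7 Ppp1r14a stood at 49.1% and Dstn at 49.0% of the starting level, against 50.7% for Myl9, 53.2% for Myh11 and 53.3% for Acta2. Smtn, Ppp1r12b, Des, Actn1, Cnn3 and Svil passed it at bin 9, and Vcl, Palld and Cnn2 only at bin 10. Tpm4 and Sncg never did.

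Genes that passed that level at the same bin ended at different levels. Myh11 was at 40 UMIs per 10000 in bin 1, 21.5 in bin 7, 10.8 in bin 8, 3.68 in bin 9 and 0.587 in bin 10, which is 1.45% of its starting level. Acta2 ended at 4.38%, Tagln at 4.44%, Cnn1 at 2.26% and Myl9 at 2.57%. Smtn ended at 21.9%, Vcl at 33.9%, Ppp1r12b at 37.1% and Palld at 38%. Ppp1r14a ended at 3.53% and Dstn at 11.8%. Tpm4 rose along the axis to 278% of its starting level in bin 9 and stood at 140% in bin 10. Sncg peaked at 160% in bin 8 and ended at 57.2%. Bin 10 was made up of fibromyocyte-like (48.4%) and chondrocyte-like (44.3%) cells, and bin 9 of fibromyocyte-like (40.5%), complement-like (32%) and chondrocyte-like (13.1%) cells. The part of this makeup in the lower Tpm4 and Sncg of bin 10 was not tested.

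In the 9698 ligation cells, 18 of 31 genes at a sufficient level fell below 50%, against 3.61% of all 2993 genes. Pdlim3 passed the level at bin 8, and Synpo2, Csrp2, Actg2 and Dstn at bin 9. In cells of the Trf2T188A library alone, in the same bins, Pdlim3 passed it at bin 9. With each library cut into 10 bins of its own, Pdlim3 passed it at bin 9 in the control and bin 8 in the Trf2T188A library. The other 13 genes that fell, Myh11, Acta2, Cnn1 and Tagln among them, passed the level only in bin 10 with both libraries together. In the control library alone, in the same bins, Cnn1, Myl9, Tpm2 and Ppp1r14a passed it at bin 9. In bin 10 Myh11 stood at 32.1% of its starting level, Acta2 at 40%, Tagln at 42.7%, Cnn1 at 32.4% and Smtn at 68.9%. Tpm4 stood at 191%, Cnn2 at 128% and Vcl at 120%. Smtn, Vcl and Cnn2 passed it at bin 9 or 10 in plaques and not at all after ligation. When a fall to 0.25 times the starting level was asked for instead, 3 genes qualified after ligation, namely Pdlim3, Synpo2 and Actg2. The share of all genes at that limit was not counted, so this count cannot be read as particular to the contractile genes.

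**Figure D4:**
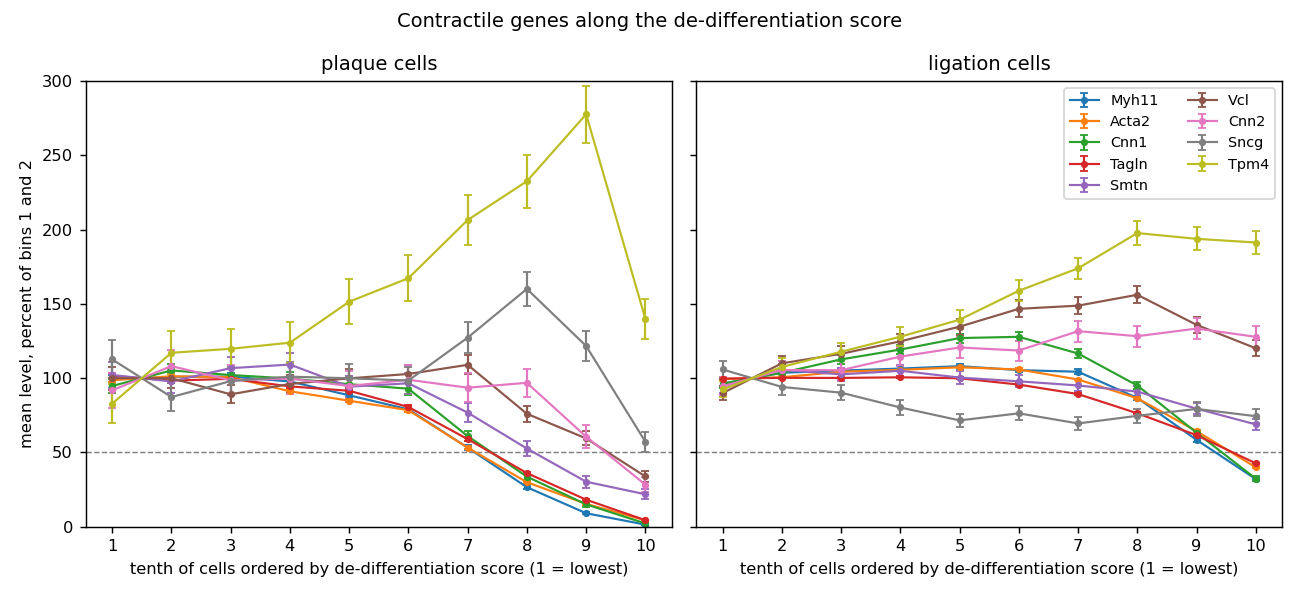
Mean level of 9 contractile genes in 10 bins of cells ordered by the de-differentiation score, in percent of the mean of bins 1 and 2, for plaque (left) and ligation (right) cells, with bars for the 95% counting interval and a dashed line at 50%. In plaques Myh11 ends at 1.45% and Smtn at 21.9% while Tpm4 reaches 278%, and after ligation Myh11 ends at 32.1% and Tpm4 at 191%.

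The levels along the axis were also read for each library, in the same bins. In plaques 22 of the 33 genes had the same bin in both libraries or fell in neither. In the Trf2T188A/ApoE-/- library 3 (Ppp1r12b, Palld and Pdlim3) passed 50% of their library's starting level at an earlier bin (2.53% of all genes), 7 at a later one (3.49%), and Sncg passed it only there. Acta2, Cnn1, Tagln and Myl9 passed it at bin 8 in both libraries, Myh11 and Ppp1r14a at bin 7 in the ApoE-/- and at bin 8 in the Trf2T188A/ApoE-/- library, and Vcl at bin 10 in both. After ligation 22 of 31 genes had the same bin in both libraries or fell in neither, 0 were earlier and 7 later in the Trf2T188A library (0.401% and 0.969% of all genes), Mylk passed the level only there and Flna only in the control library. The direction in plaques depended on how the bins were made. With each library cut into 10 bins of its own, which then cover different ranges of the score, 18 of 33 genes were earlier and 1 later in the Trf2T188A/ApoE-/- library (6.62% and 0.993% of all genes). After ligation 1 of 31 was then earlier and 3 later (0.936% and 0.368% of all genes). With 1 library per genotype, the genotype and the library cannot be told apart.

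Between genotypes, contractile-like plaque cells differed little. Of the 33 genes 1 (Des) was lower and 1 (Tpm4) higher in the Trf2T188A/ApoE-/- library by at least 0.25 on the log2 scale, against 4.64% and 4.36% of all 3188 genes. The study used the same size of fold change, but also asked for an adjusted p-value and a minimum share of cells with the gene. Calls here rest on size alone and do not match those of the study. Des had a level of 1 without and 0.819 with Trf2T188A, a log2 ratio of -0.29 (-0.49 to -0.09), and Tpm4 at 1.68 and 2.04, a log2 ratio of 0.28 (0.17 to 0.40). Under 6 of 11 other settings 0 genes were lower. The median over the 33 genes was 0.01. Myh11 had a log2 ratio of -0.16 (-0.18 to -0.13), Acta2 0.10, Tagln 0.05, Cnn1 -0.004 and Smtn -0.05.

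Fibromyocyte-like cells differed between the plaque libraries across the apparatus. Of 30 genes at a sufficient level, 23 were lower by at least 0.25 in the Trf2T188A/ApoE-/- library and 0 higher, against 22.4% and 10.9% of all 3228 genes. All 30 ratios were below 0, with a median of -0.46 against -0.08 over all genes. Cnn1 was at 1.44 in the ApoE-/- and 0.697 in the Trf2T188A/ApoE-/- library, a log2 ratio of -1.05 (-1.27 to -0.83). Synpo2 was at 1.41 and 0.734 (-0.95), Lmod1, which nucleates actin filaments, at 2.49 and 1.36 (-0.87), and Sncg at 3.97 and 2.27 (-0.81). Acta2 was at 25.6 and 16.8, a log2 ratio of -0.61 (-0.66 to -0.57), and Tpm2 at 6.65 and 4.38 (-0.60). Tagln had -0.60, Myh11 -0.55 and Smtn -0.31. Mylk (-0.10), Actg2 (-0.08), Ppp1r12a (-0.15) and Vcl (-0.18) differed less than the limit. Of the other lists, 8 of 12 integrin adhesion partners were lower and 1 (Itga1) higher, and Myocd was at 1.23 and 0.826 (-0.58).

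Several measures moved with this difference. Fibromyocyte-like cells of the Trf2T188A/ApoE-/- library lay further along the de-differentiation axis, with a median score of 3.99 against 3.66, and 49.1% of them against 34.4% were in bin 10. Within bin 8, which held 16 Trf2T188A/ApoE-/- and 27 ApoE-/- cells of the class, 18 of 30 genes were lower and 2 higher (41% and 29.9% of all genes). Within bin 9 (30 and 60 cells) 18 of 30 were lower and 3 higher (31.7% and 28.9% of all genes), and within bin 10 (54 and 53 cells) 16 of 27 were lower and 0 higher (27.9% and 21.9% of all genes). The 95% counting interval lay wholly below 0 for 12, 11 and 9 of these lower genes. The medians within bins were -0.46, -0.36 and -0.29, against -0.12, -0.02 and -0.05 over all genes. With bins 8 to 10 weighted equally, a choice made after the data had been seen, 19 of 30 genes were lower and 1 higher. The median depth of the class was 35165 UMIs per cell in the ApoE-/- and 29335.5 in the Trf2T188A/ApoE-/- library, and with each cell thinned to 8000 UMIs 20 genes were lower. The 10 endothelial markers summed to 0.663 and 1.16, the 10 immune markers to 0.664 and 0.392, with Ptprc and Lcp1 at 0 in both, and the digestion genes to 55.6 and 54.6. The cell with the fewest genes had 1531 of them without and 1056 with Trf2T188A, and 21 members were lower when cells under 2000 genes were left out. The shares of all genes lower with equal bin weights, with thinning or without cells under 2000 genes were not counted. The part of these measures in the genotype difference was not tested.

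Genes past the limit were in both directions in the 3 other plaque classes compared by genotype, which were complement-like, Itih4 intermediate-like and chondrocyte-like cells. In complement-like cells 2 of 29 genes were lower and 4 higher in the Trf2T188A/ApoE-/- library (13.6% and 14.1% of all genes), with a median of 0.04. Synpo2 (-0.50) and Cnn2 (-0.38) were lower, and Csrp1 (0.45), Cnn1 (0.38), Ppp1r14a (0.38) and Dstn (0.30) higher. In Itih4 intermediate-like cells 4 of 33 were lower and 2 higher (8.05% and 11.1% of all genes), with Actg2 at 0.37, Ldb3 at -0.36, Ppp1r12b at -0.34, Des at 0.30, Synpo2 at -0.28 and Lmod1 at -0.28. In chondrocyte-like cells 18 genes reached the level, and 2 were lower and 5 higher (17.3% and 26.6% of all genes). Dstn had 0.51 (0.32 to 0.70) and Myl6 0.33 (0.17 to 0.49), whereas the intervals of Csrp1 (0.32, -0.11 to 0.76) and Tpm4 (0.33, -0.02 to 0.68) included 0. Cald1 had -0.32, Smtn -0.28 and Ppp1r12b 0.30.

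After ligation few of the genes passed the genotype limit. In contractile-like cells 1 of 32 genes was lower and 1 higher in the Trf2T188A library (3.33% and 7.28% of all 3037 genes). Palld was at 1.79 in the control and 1.28 in the Trf2T188A library, a log2 ratio of -0.48 (-0.56 to -0.40), and Ppp1r14a at 4.89 and 5.83, a log2 ratio of 0.25 (0.21 to 0.30). In remodelling-like cells 6 of 32 were lower and 0 higher (10.7% and 8.19% of all 2917 genes), namely Synpo2 (3.79 and 2.75, log2 ratio -0.46), Ppp1r12a (10.9 and 8, -0.45), Actg2 (6.18 and 4.66, -0.41), Svil (4.06 and 3.09, -0.40), Mylk (10.6 and 8.15, -0.39) and Myh11 (41 and 34.2, -0.26). The remodelling-like class was not made of the same cells in the 2 libraries. At the higher clustering resolution of 0.4, 973 control and 177 Trf2T188A cells of the class fell in a cluster led by Actg2, Atf5 and Neat1, and 15 and 660 in a cluster led by Itih4, Rgs5 and Wnt16. When clusters with over 80% of their cells from 1 library were left out, a choice made after the data had been seen, 5 genes were lower and 2 higher. Actg2 then had -0.07 and Myh11 -0.15, under the limit, and Synpo2 (-0.39), Ppp1r12a (-0.41), Svil (-0.38) and Mylk (-0.34) were still lower. Leaving out a control-heavy cluster led by Actg2 lowers the control level of Actg2 by construction, so its value here decides nothing. The part of this makeup in the genotype ratios, those of Actg2 and Myh11 included, was not tested. In de-differentiated-like cells 6 of 30 were lower and 1 higher (8.59% and 8.35% of all 2969 genes). Synpo2 (-0.39), Myh11 (-0.38), Mylk (-0.35), Lmod1 (-0.33), Ppp1r12a (-0.33) and Svil (-0.28) were lower, and Sncg (0.39) higher. Synpo2, Ppp1r12a, Svil, Mylk and Myh11 were lower in both classes, which come from the same pair of libraries. The share of all genes lower in both was not counted. These genes have long loci, from 96.8 kb (Myh11) to 257 kb (Mylk). No member with a shorter locus was lower in both classes. Of the other long genes, Palld (391 kb) was lower in contractile-like cells only. Ppp1r12b (201 kb), Cald1 (177 kb) and Vcl (104 kb) did not pass the limit in any ligation class compared by genotype. The part of locus length in these values was not tested. Acta2 had 0.07, 0.13 and -0.04 in contractile-like, remodelling-like and de-differentiated-like cells, Tagln 0.13, 0.03 and 0.02, Cnn1 -0.09, 0.07 and -0.04, and Smtn 0.06, -0.16 and -0.08.

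**Figure D5:**
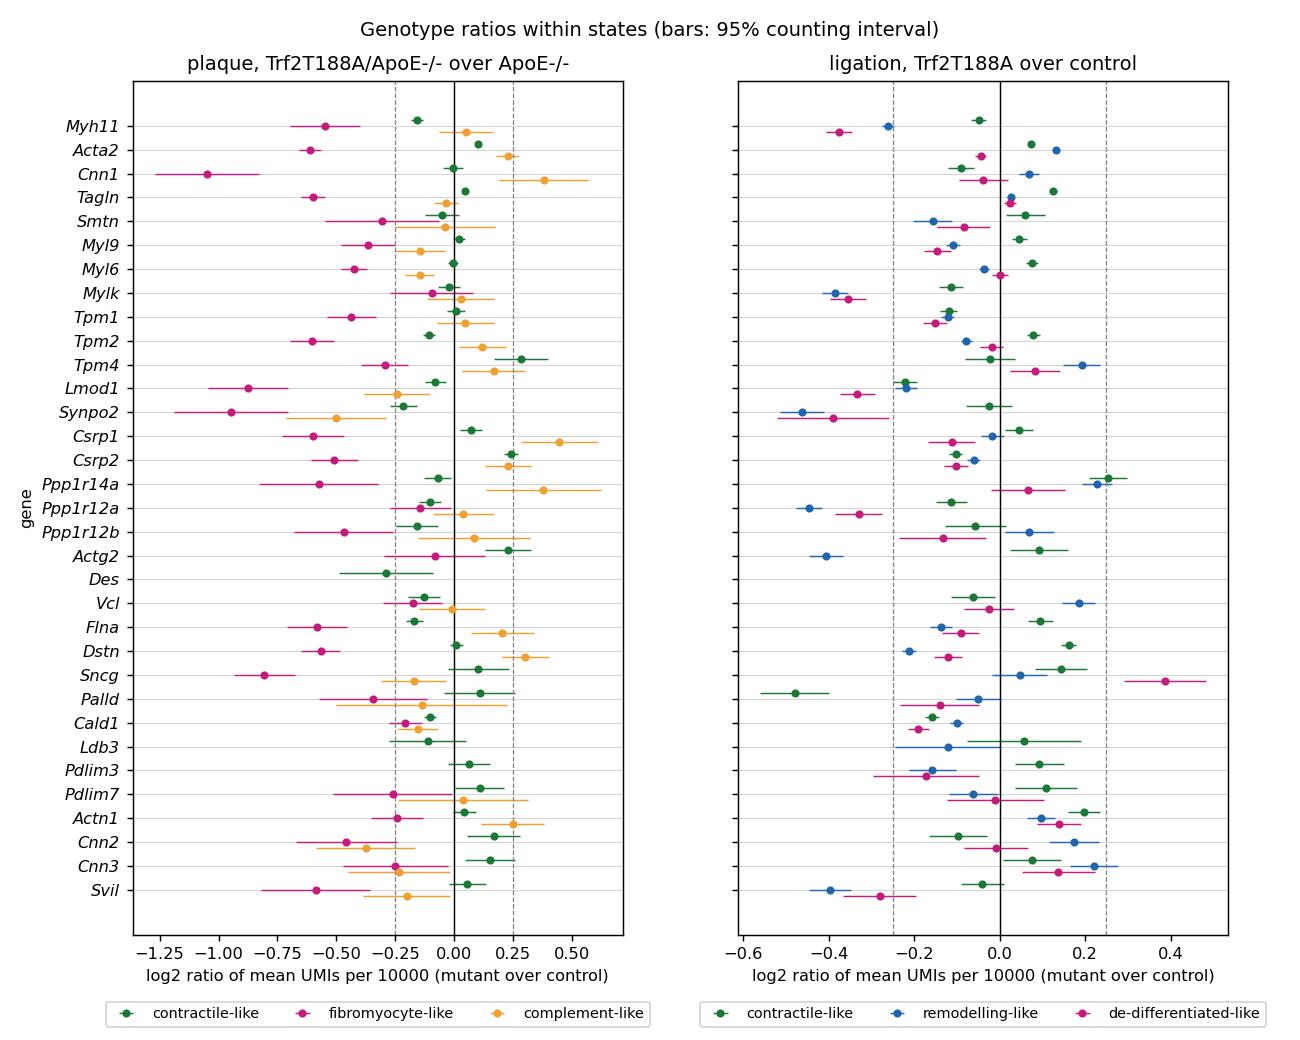
Log2 ratio of the mean UMIs per 10000 between genotypes within cell states for the 33 genes, in plaques (left, Trf2T188A/ApoE-/- over ApoE-/-) and after ligation (right, Trf2T188A over control), with bars for the 95% counting interval and dashed lines at -0.25 and 0.25. In plaques the fibromyocyte-like points lie below 0 for all 30 genes that reached the level, down to -1.05 for Cnn1, and the contractile-like points lie between -0.29 and 0.28.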

How the data were processed

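Arterial cells of 4 libraries (plaques of aorta and carotid artery, and ligated carotid arteries) were measured by droplet single-cell RNA sequencing. Per the submitters' processing notes, ligation libraries were made with Cell Ranger 6.1.2, Seurat 3.2.1 and R 3.6.2 and plaque libraries with Cell Ranger 7.0.0, Seurat 4.3.0 and R 4.2.2. The deposited values are a linear signal, UMIs divided by the cell's total and multiplied by 10000, from which the UMIs were recovered as whole numbers (100% within 0.01). The libraries held 37869934, 24064570, 47713453 and 67426588 UMIs (plaque ApoE-/-, plaque Trf2T188A/ApoE-/-, ligation control, ligation Trf2T188A). The lowest number of genes in a deposited cell was 1531 and 1056 in the 2 plaque libraries.

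Cells of each experiment were clustered with Seurat 5.3.0 (R 4.3.3, Matrix 1.6.5) on 2000 variable genes without the members, with 18 components and resolution 0.9 for plaques and 17 and 0.2 for ligation. A cluster was named from a marker list when the list's mean log2 ratio was at least 0.35, at least 3 of its markers were at 0.5 or more and it led the next list by 0.15, limits chosen with the clusters in view. Levels and ratios were computed in Python 3.11.15 with scipy 1.17.1, numpy 2.4.6, anndata 0.12.19, scanpy 1.11.5 and pandas 2.3.3, and drawn with matplotlib 3.10.9. Ratios between states weighted both libraries equally, and genes with a mean under 0.5 UMIs per 10000 over both groups were left out. Calls used a log2 ratio of 1 between states and 0.25 between genotypes. Intervals are 95% and cover counting error only, and no test was run because each genotype has 1 library per experiment.

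For the axis and for shares of cells with a UMI, cells were thinned to 8000 (plaque) or 5000 (ligation) UMIs, which left out 92, 122, 325 and 154 cells in the order above. Scrublet called at most 0.323% of a library's cells as doublets and was taken not to have worked, so the top 5% of its scores were left out as an alternative. Named genes were Myh11, Acta2, Cnn1, Tagln and Smtn, the 3 lowest and 3 highest ratios of each state, up to 6 members past the genotype limit and the paralogs. Other alternatives were clustering settings, summed UMIs, a pseudocount, other denominators, cell filters, thinning, no filter on low values and other axis settings. The members and lists were chosen with earlier results of these data known. The scripts were tested on simulated data. Some results of the other gene lists are not reported here.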

Additional observations from a re-analysis of the deposited data

Results flagged for a closer look

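In the pairs of cell classes below, 5 genes had genotype ratios past 0.25 in opposite directions. These differences were not tested, since each genotype has 1 library per experiment. The share of all genes with such opposite ratios was not counted, so the counts cannot be read as particular to the contractile genes.

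Cnn1 had a genotype log2 ratio of -1.05 in plaque fibromyocyte-like and 0.38 in plaque complement-like cells, a difference of -1.428. Csrp1 (-0.60 and 0.45), Ppp1r14a (-0.57 and 0.38) and Dstn (-0.57 and 0.30) had differences of -1.043, -0.9516 and -0.869 between the same classes. These were 4 of the 29 genes at a sufficient level in both. Of all genes, 22.4% were lower in fibromyocyte-like and 14.1% higher in complement-like cells of the Trf2T188A/ApoE-/- library.

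Sncg had a log2 ratio of -0.81 in plaque fibromyocyte-like and 0.39 in ligation de-differentiated-like cells, a difference of -1.195, the only one of 29 genes in this pair. Between contractile-like cells of the 2 experiments, and between contractile-like and remodelling-like ligation cells, 0 of 32 genes passed the limit in opposite directions. Of all 28 pairs of the classes compared by genotype, 8 held such a gene, among them plaque chondrocyte-like against fibromyocyte-like cells with 5 of 18 genes (Csrp1, Dstn, Myl6, Ppp1r12b and Tpm4). The intervals of Csrp1 and Tpm4 in chondrocyte-like cells included 0.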

How the results depend on the processing

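Of 131 counts of members recomputed under alternatives, 121 were within 1.5 times the reported count and 10 were not. Of single genes' ratios, 1457 between genotypes and 1277 between states moved by no more than counting error, 208 and 664 moved by more, and 0 past a limit changed sign. The count of genes lower in contractile-like cells of the Trf2T188A/ApoE-/- plaque library, reported as 1, was 0 with members allowed among the variable genes, at resolution 0.6 or 1.2, with a pseudocount of 1, without the top 5% of Scrublet scores, or with the unnamed cluster counted as contractile-like (chosen after seeing the data), and 2 with cells thinned to 8000 UMIs. The count of genes falling along the ligation axis was 18 and became 3 when a fall to 0.25 times was asked for, which is a stricter limit by construction. The count of genes earlier on the axis in the mutant library went from 3 to 18 in plaques and from 0 to 1 after ligation with each library cut into 10 bins of its own, a choice made after seeing the data. The cause of the other changes was not tested. Genes at least 2-fold lower numbered 25 to 29 in fibromyocyte-like (28 reported), 27 to 32 in chondrocyte-like (30), 22 to 26 in complement-like (25) and 9 to 13 in de-differentiated-like cells (11). Genes lower by genotype in fibromyocyte-like cells numbered 18 to 25 (23 reported). At resolution 0.1 no ligation cluster was named contractile-like, so comparisons with that class gave no value. No paired analysis was possible because each group has 1 library. With 1 library per genotype, animal, library and genotype cannot be told apart, and free RNA and depth limit the reading of genes near 0.5 UMIs per 10000.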
